A study of Mus musculus with 6 samples.

Results

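The genes described here make up the antigen processing and presentation machinery of BV2 cells, an immortalised mouse microglial line, after knockdown of GCH1. Members were the genes whose symbol begins with H2-, the prefix of the mouse major histocompatibility complex (MHC), plus a named set of peptide loading, peptide supply, regulatory and costimulatory genes. Of 69 annotated symbols that met this definition, 37 had values among the 12327 genes of the expression table, and all 37 entered the test. The other 32 were not analysed here. They include Ciita, the class II master regulator, and the class II chains H2-Aa, H2-Ab1 and H2-Eb1. The 3 GCH1-KD libraries came from BV2 cells after 48 hours of infection with the adenovirus Ad-shGCH1, which delivers a short hairpin RNA against GCH1. The 3 negative control libraries came from the same line. They are Ad-NC in the treatment text and wild type in the series text, so whether they received a virus is unclear. Both groups were grown in serum-containing medium, no immune stimulus is named for either in the labels, and ribosomal RNA was depleted before stranded libraries were made.

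MHC class I molecules present peptides from proteins made inside the cell. The proteasome, partly rebuilt with inducible subunits into the immunoproteasome, cuts the proteins, the TAP transporter carries the peptides into the endoplasmic reticulum, and chaperones load them onto a heavy chain paired with beta-2-microglobulin. Class II molecules present peptides from engulfed material and are guided by the invariant chain, encoded by Cd74, and by the H2-DM and H2-O proteins. Microglia are the resident macrophages of the brain and are known to raise both routes when stimulated by interferon-gamma. NLRC5 drives class I transcription as CIITA drives class II, both acting through the RFX and NF-Y factors at the promoters. GCH1 encodes GTP cyclohydrolase I, the first and rate-limiting enzyme of tetrahydrobiopterin synthesis, which supplies the cofactor of nitric oxide synthases.

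The class I promoters printed are those of the heavy chains with the smallest p and of their light chain B2m, and the Tap1 interval is printed because Psmb9 shares it. They are shown to set side by side the exact letter matches in each one to elements known from NLRC5, interferon and NF-kB control. Each is the 250 bases before the start of transcription, 5′ to 3′ on the strand of the gene, from RefSeq on GRCm38.p6. The intervals are chr17:34000334-34000583 on the minus strand for H2-K1, chr17:35262844-35263093 on the plus strand for H2-D1, chr17:35379367-35379616 on the plus strand for H2-Q4, chr2:122147437-122147686 on the plus strand for B2m and chr17:34187306-34187555 on the plus strand for Tap1. Capitals mark exact matches, on either strand, to the letters GGGATTCC (an NF-kB site), TTTCNNTT (the core of the interferon-stimulated response element, ISRE), TGACG (the core of the cyclic AMP response element, part of the X box) and CCAAT (the Y box bound by NF-Y, read as ATTGG on the other strand).
H2-K1: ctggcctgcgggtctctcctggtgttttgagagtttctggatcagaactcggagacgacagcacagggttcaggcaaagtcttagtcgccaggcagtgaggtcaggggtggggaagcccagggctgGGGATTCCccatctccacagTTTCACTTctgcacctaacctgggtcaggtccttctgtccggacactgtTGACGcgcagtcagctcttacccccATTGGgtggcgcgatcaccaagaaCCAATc
H2-D1: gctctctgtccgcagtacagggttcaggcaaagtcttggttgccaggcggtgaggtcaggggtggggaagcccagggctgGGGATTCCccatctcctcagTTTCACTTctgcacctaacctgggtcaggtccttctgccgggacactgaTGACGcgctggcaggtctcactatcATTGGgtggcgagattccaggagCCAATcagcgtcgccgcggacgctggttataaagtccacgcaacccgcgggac
H2-Q4: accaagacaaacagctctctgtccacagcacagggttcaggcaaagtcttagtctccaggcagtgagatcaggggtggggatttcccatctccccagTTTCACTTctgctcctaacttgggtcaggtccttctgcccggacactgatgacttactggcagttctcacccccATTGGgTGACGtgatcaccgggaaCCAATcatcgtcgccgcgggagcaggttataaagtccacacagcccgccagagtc
B2m: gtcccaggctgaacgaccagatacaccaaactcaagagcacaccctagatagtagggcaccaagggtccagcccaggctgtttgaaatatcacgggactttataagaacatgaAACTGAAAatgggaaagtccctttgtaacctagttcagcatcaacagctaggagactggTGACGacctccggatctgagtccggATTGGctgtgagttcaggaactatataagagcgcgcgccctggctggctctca
Tap1: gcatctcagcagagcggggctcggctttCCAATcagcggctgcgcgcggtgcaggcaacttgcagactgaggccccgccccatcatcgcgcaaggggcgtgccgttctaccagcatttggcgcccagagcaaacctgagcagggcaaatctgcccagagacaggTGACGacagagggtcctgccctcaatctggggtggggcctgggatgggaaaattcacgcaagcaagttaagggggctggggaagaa
In H2-K1 and H2-D1 the 4 elements follow each other in the same order, NF-kB, ISRE core, TGACG and the Y box. H2-Q4 has the ISRE core, TGACG and the Y box but no exact GGGATTCC. Ahead of its ISRE core it reads ggggatttccc. Other spellings of an NF-kB site than GGGATTCC were not searched for, so they are not marked in any of these sequences, B2m included. The TGACG of H2-Q4 comes after the ATTGG match, starting 73 against 79 bases before the start of transcription. In H2-K1 and H2-D1 it comes ahead of ATTGG, so H2-Q4 does not hold it at the same place. B2m has the ISRE core on the other strand. The Tap1 interval is also the upstream region of Psmb9, which is transcribed in the opposite direction from a start 226 bases away. It held TGACG and CCAAT, and neither an ISRE core nor an NF-kB match of these letters.

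RefSeq promoters were matched for 27 members, giving 30 windows. The ISRE core was in 46.7% of these and in 21.3% of 32851 promoters of the same length, TGACG in 46.7% and 17.8%, CCAAT in 73.3% and 33.8%, and GGGATTCC in 16.7% and 0.889%. Among the 10 windows of class I chains, all 10 held the ISRE core and CCAAT, 8 held TGACG and 5 held GGGATTCC. The windows are not independent. H2-K1, H2-DMa and Psme2 enter repeatedly, from different starts, and several heavy chains are related in sequence. The windows of H2-K1 overlap and both count among those that held GGGATTCC and TGACG. No matched motif overlapped another in the sequences printed. These are matches of letters and not measured binding sites.

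The targeted gene was measured first. Gch1 stood at 3.20, 2.93 and 3.43 FPKM (a sequencing level scaled to transcript length and library size) in GCH1-KD libraries, against 6.89, 7.22 and 7.23 FPKM in negative control libraries. It fell to 44.8% of its negative control level, a log2 fold change of -0.96 ± 0.06 (SE) with a limma adjusted p of 0.0054, and the knockdown and control libraries did not overlap. An exact two-sided permutation test gave p = 0.1, the smallest that 3 libraries against 3 allow. Library sums ran between 224291 and 230292 FPKM, and pairwise correlations of log2 values between 0.989 and 0.993. Sequencing depth, estimated from the step size of the values, was 6.32 to 7.61 gigabases in GCH1-KD libraries and 5.25 to 5.58 gigabases in negative control libraries, so depth differed between the groups without overlap, and its part in any result below was not tested. The line label was checked against its markers. Of 12 microglia and macrophage markers 11 were measured, summing to 883.9 to 940.1 FPKM in GCH1-KD libraries and 934.6 to 951.1 FPKM in negative control libraries, while P2ry12 was not analysed here. Most of this sum came from Cd68 (means of 457.0 FPKM in GCH1-KD and 486.0 FPKM in negative control libraries) and Tyrobp (258.8 and 264.6 FPKM). Others on the list were weak, with Tmem119 at 0.599 and 0.567 FPKM and Aif1 at 2.53 and 1.99 FPKM. Cx3cr1 was at 0.483 and 1.35 FPKM, raised in the controls by 3.16 FPKM in negative control library 3. None of 6 B cell and none of 6 neuron markers had a value. Of 7 dendritic cell markers 3 were measured, Itgax, Batf3 and Zbtb46, summing to 55.2 to 64.6 FPKM in GCH1-KD libraries and 53.3 to 56.3 FPKM in negative control libraries. Of 6 astrocyte markers 1 was measured (Aldoc), as was 1 of 6 oligodendrocyte markers (Cnp) and 1 of 6 T cell markers (Lck), and 3 of 8 fibroblast and endothelial markers (Flt1, Vwf and Acta2). Their sums were 24.7 to 26.3, 5.10 to 5.80, 0.561 to 0.875 and 26.6 to 29.4 FPKM in GCH1-KD libraries, against 24.8 to 28.6, 4.89 to 5.52, 0.895 to 1.003 and 26.9 to 27.9 FPKM in negative control libraries, in the same order, and their part in any result was not tested. Whether the 3 libraries per group stem from different cultures is not stated in the labels. The p-values therefore cover the spread among these 6 libraries, which may be technical.

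The 37 members ranged over more than 3 orders of magnitude, between 0.601 and 849.4 FPKM as means of 6 libraries. B2m, the light chain of class I molecules, was the 17th most abundant gene of the whole table. It was followed among the members by the classical class I heavy chain H2-D1, the loading chaperone Calr, the chaperones Pdia3 and Canx and the heavy chain H2-K1. Of the class II route, Cd74 stood at 71.0 to 119.9 FPKM over all 6 libraries, H2-DMb1, H2-Oa and H2-DMa were at or under 10.99 FPKM, and no classical class II chain was analysed here.

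**Figure D1:**
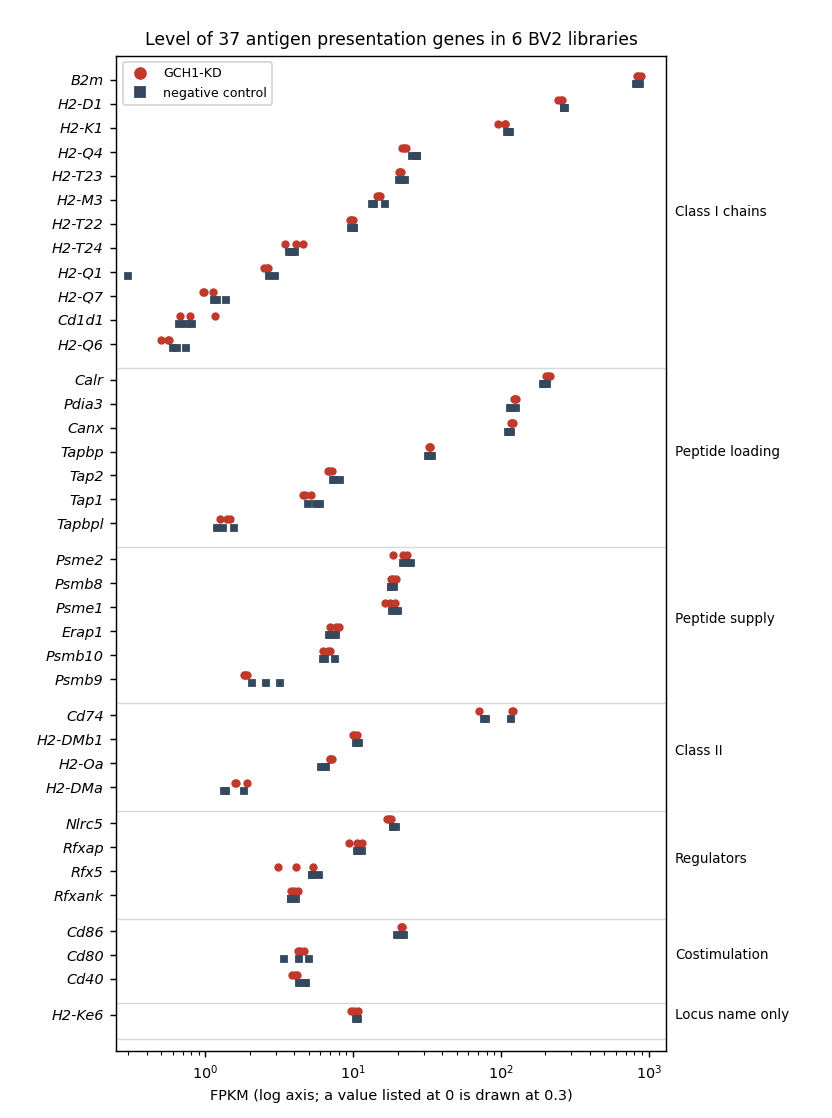
FPKM (log axis) of each of the 37 members in the 3 GCH1-KD libraries (circles) and the 3 negative control libraries (squares), grouped by role. B2m, H2-D1 and Calr lie highest, and a single value, H2-Q1 in negative control 1, is listed at 0 and drawn at 0.3.

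None of the 37 members passed an adjusted p of 0.05 in limma over all 12222 genes tested, where 10 genes, 0.0818%, passed. The smallest adjusted p of a member was 0.239, for H2-Q4. At an unadjusted p of 0.05, 6 members (16.2%) lay lower in GCH1-KD libraries, against 4.82% of all genes, and 1 member (2.70%) lay higher, against 6.47% of all genes. In 9 members (24.3%) every GCH1-KD library lay under every negative control library, against 8.36% of all genes, and in 1 member (2.70%) every GCH1-KD library lay above, against 9.99% of all genes. The count on the higher side was 5 without GCH1-KD library 2, and 4, 3 and 2 without negative control libraries 3, 2 and 1. It was 2 under median-of-ratios scaling or the correction for GC and length. On the lower side the count was 9, 12 and 13 without GCH1-KD libraries 1, 2 and 3, and 11, 12 and 9 without negative control libraries 1, 2 and 3. It was 8 under median-of-ratios scaling, 11 under the correction for GC and length, and 5 among the 25 members with a mean of at least 5 FPKM. Groups separate more easily with a library left out, and the share over all genes was not computed for these alternatives. In all, 20 members (54.1%) had a log2 fold change under 0, against 47.0% of all genes, and the median over members was -0.01, against 0.01 over all genes. The member median was thus close to the background while the counts of separated members were on the lower side. In whole cultures, fewer cells with a transcript and less transcript per cell cannot be told apart.

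**Figure D2:**
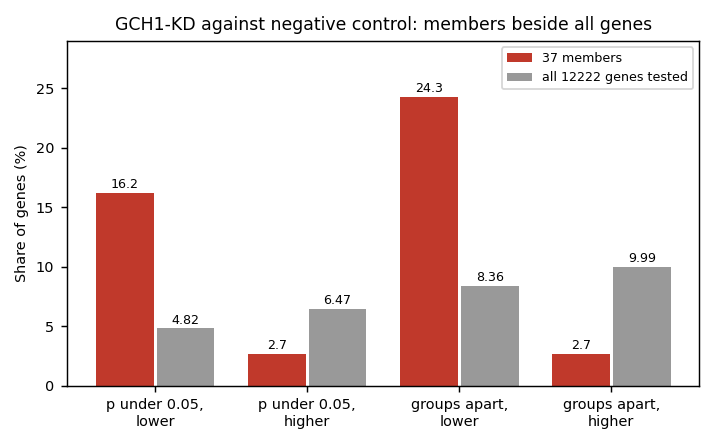
Share of genes (%, from 0) among the 37 members and among all 12222 genes tested that had an unadjusted limma p under 0.05 or groups that did not overlap, by direction of GCH1-KD against negative control. Among members 24.3% (9 genes) were separated on the lower side, against 8.36% of all genes. That count was 8 under median-of-ratios or quantile scaling and 5 among the 25 members with a mean of at least 5 FPKM. It was 9 to 13 with a library left out, where groups separate more easily. On the higher side the share was 2.70% (1 gene, and up to 5 with a library left out) against 9.99%. The shares of all genes are for all 6 libraries.

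The 9 members separated on the lower side were the class I heavy chains H2-Q4, H2-K1, H2-D1, H2-Q7 and H2-Q6, the transporter subunit Tap2, the immunoproteasome subunit Psmb9, the regulator Nlrc5 and the costimulatory receptor Cd40. The 1 separated on the higher side was H2-Oa. By role, 7 of 12 class I chains lay under 0 (median -0.04), 3 of 7 loading genes (0.02), 4 of 6 peptide supply genes (-0.06), 1 of 4 class II genes (0.12), 3 of 4 regulators (-0.08) and 1 of 3 costimulatory genes (0.01). The 19 members on chromosome 17, where the MHC lies, had a median of -0.06 with 13 under 0, and the 18 members elsewhere had a median of 0.01 with 7 under 0. The other 572 tested genes of chromosome 17 had a median of -0.005, with 52.3% under 0.

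**Figure D3:**
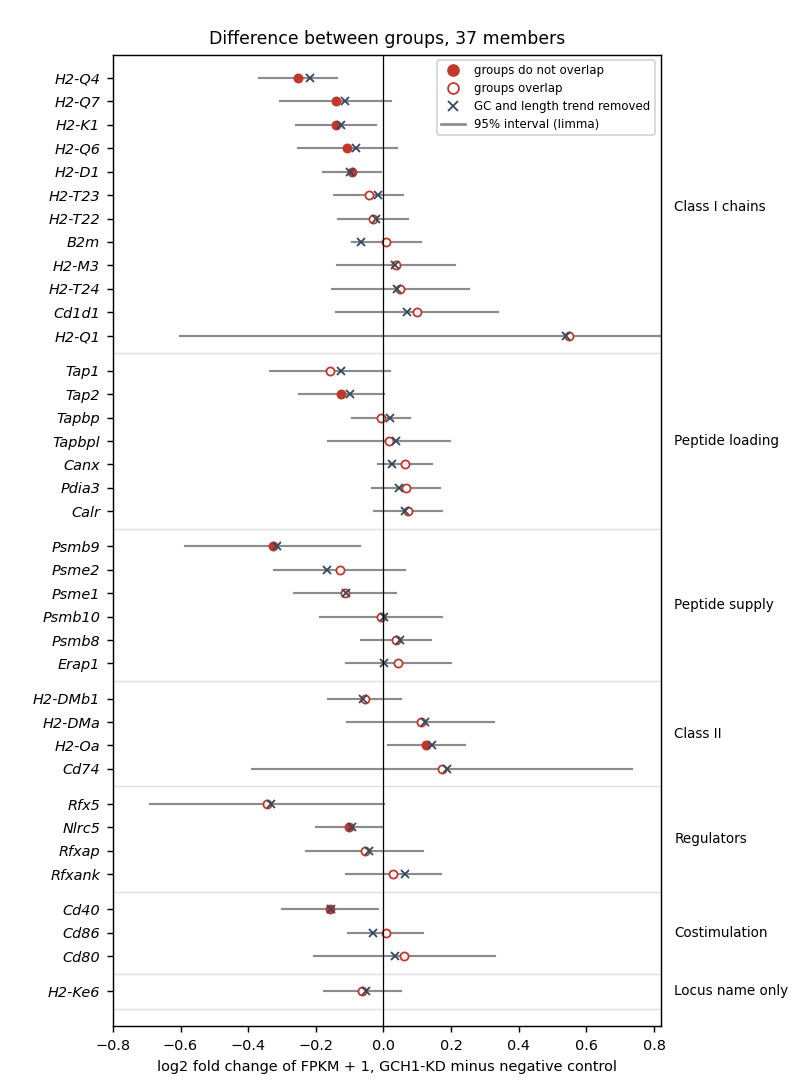
Log2 fold change of FPKM + 1 (GCH1-KD minus negative control) for each member, with its 95% limma interval, filled where the groups did not overlap and open where they did. Crosses give the value after the trend with transcript GC content and length was removed; H2-Q4 and the other separated class I chains lie left of 0 in both, and the interval of H2-Q1 runs past the right edge.

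Class I chains held the member with the smallest p. H2-Q4, a heavy chain of the Qa region, lies at chr17:35379617-35385290 (GENCODE M21, GRCm38). It stood at 21.2, 22.1 and 22.7 FPKM in GCH1-KD libraries, against 24.9, 27.2 and 27.2 FPKM in negative control libraries. All 3 knockdown values lay under all 3 control values, with a gap between the groups wider than the range of the knockdown libraries. The mean was 83.3% of negative control, a log2 fold change of -0.25 ± 0.05 (SE; limma adjusted p = 0.239), the 64th smallest p of all genes.

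H2-K1, a classical heavy chain that presents peptides to CD8 T cells, had 95.3, 106.3 and 105.9 FPKM in GCH1-KD libraries, against 110.1, 115.2 and 113.5 FPKM in negative control libraries. The groups did not overlap, and GCH1-KD library 1 was the lowest. The mean was 90.8% of negative control (log2 fold change -0.14 ± 0.05, limma adjusted p = 0.383), and the log2 fold change was -0.09 without that library. H2-D1, the other classical heavy chain measured and the most abundant, had 244.0, 259.8 and 255.1 FPKM in GCH1-KD libraries, against 269.0, 268.2 and 272.7 FPKM in negative control libraries. These groups were also apart, by a smaller step, at 93.7% of negative control (log2 fold change -0.09 ± 0.04, limma adjusted p = 0.405). The Qa genes H2-Q7 and H2-Q6, both near 1 FPKM or under, averaged 83.0% and 81.9% of negative control, and both were separated on the lower side. With the trend on GC content and length removed, the groups of H2-Q6 overlapped.

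The remaining chains did not separate. The nonclassical H2-T23, which encodes Qa-1 and is recognised by receptors of natural killer cells, stood at 20.8 ± 0.33 FPKM in GCH1-KD libraries and 21.4 ± 0.97 FPKM in negative control libraries (SD, n = 3 each). H2-T22, H2-T24, H2-M3, which presents formylated peptides, and Cd1d1, which presents lipids, had log2 fold changes of -0.03, 0.05, 0.04 and 0.10, each with overlapping groups. H2-Q1 was listed at 0 in negative control library 1 and at 2.69 and 2.97 FPKM in the other two, against 2.60, 2.64 and 2.50 FPKM in GCH1-KD libraries. Its log2 fold change of 0.55 rests on that single 0, and without H2-Q1 the member median was -0.02.

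B2m, added to the description after its values were seen, did not lie with the lower heavy chains. It had 844.4, 881.7 and 829.7 FPKM in GCH1-KD libraries, against 824.1, 876.7 and 839.8 FPKM in negative control libraries. The groups covered the same range, with a log2 fold change of 0.01 and a 95% interval of -0.09 to 0.11. With the trend on GC content and length removed, B2m was at -0.07 with its groups apart on the lower side, beside H2-D1 at -0.10, so the contrast with the heavy chains depends on the scale used. Summed over the 10 MHC heavy chain genes, GCH1-KD libraries held 414.6, 441.4 and 437.1 FPKM, against 458.7, 462.5 and 467.3 FPKM in negative control libraries. H2-K1 and H2-D1 made up 82.5% of that sum in GCH1-KD libraries and 82.7% in negative control libraries, so the sum mostly restates those genes. The level of B2m divided by the heavy chain sum was 1.98 ± 0.07 in GCH1-KD libraries and 1.83 ± 0.06 in negative control libraries (SD, n = 3 each). It was 1.90 in GCH1-KD library 3 and 1.90 in negative control library 2, and the groups were apart by less than this rounding shows (1.898 against 1.895). This ratio was computed on FPKM with no correction for GC content.

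**Figure D4:**
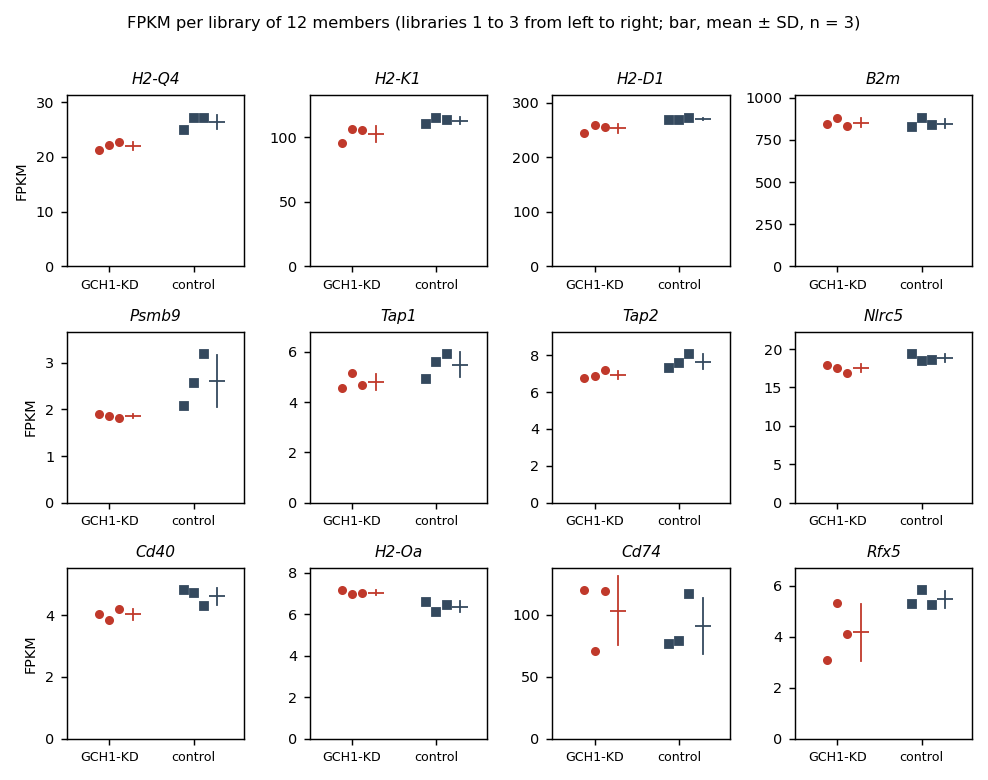
FPKM of 12 members in GCH1-KD libraries (circles) and negative control libraries (squares), libraries 1 to 3 from left to right, with the mean and SD of 3 libraries as a bar and every axis from 0. H2-Q4, H2-K1, H2-D1, Psmb9, Tap2, Nlrc5 and Cd40 are apart on the lower side, H2-Oa is apart on the higher side, and B2m, Tap1, Cd74 and Rfx5 overlap.

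Several heavy chains share sequence, which limits how their levels can be separated. Of 75-base windows in their transcripts, the share found identically in another annotated gene was 3.10% for H2-K1, 5.40% for H2-D1, 7.02% for H2-Q4, 17.9% for H2-Q6 and 18.5% for H2-T22. It was 0 for B2m, Tap1, Tap2, Psmb9, Nlrc5 and Cd40. How the authors' counting shared such reads is not given in the sources used here, so H2-Q6 and H2-Q7 in particular are uncertain as single genes.

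In the loading complex, the transporter subunits lay lower and the general chaperones did not. Tap2, a subunit of the peptide transporter, had 6.76, 6.87 and 7.18 FPKM in GCH1-KD libraries, against 7.30, 7.58 and 8.08 FPKM in negative control libraries. The groups were apart, though the highest knockdown library came close to the lowest control (log2 fold change -0.12 ± 0.05, limma adjusted p = 0.448). Tap1, its partner subunit, had 4.55, 5.18 and 4.70 FPKM in GCH1-KD libraries, against 4.94, 5.60 and 5.93 FPKM in negative control libraries. Here GCH1-KD library 2 lay above negative control library 1, so the groups overlapped (log2 fold change -0.16 ± 0.08, limma adjusted p = 0.486).

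Canx, Calr and Pdia3, the endoplasmic reticulum chaperones among the members, stood on the other side of 0, all with overlapping groups. Canx, which holds newly made heavy chains, had 120.5, 116.3 and 119.5 FPKM in GCH1-KD libraries, against 112.5, 116.4 and 112.3 FPKM in negative control libraries, with GCH1-KD library 2 just under negative control library 2. Its log2 fold change was 0.06 ± 0.03 (limma adjusted p = 0.524), and 0.02 with the trend on GC content and length removed. Calr and Pdia3, which join heavy chains in the loading complex, had log2 fold changes of 0.07 each, and both overlapped. Tapbp (tapasin), which bridges TAP and the heavy chain, and Tapbpl, a peptide editor related to it, were at -0.01 and 0.02.

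Peptide supply was uneven. Psmb9, the inducible subunit that replaces Psmb6 in the immunoproteasome and shares its upstream region with Tap1, had 1.91, 1.85 and 1.82 FPKM in GCH1-KD libraries, against 2.08, 2.58 and 3.19 FPKM in negative control libraries. The knockdown libraries lay close together and under every control, while the controls were spread widely. The mean was 71.1% of negative control, with a log2 fold change of -0.33 ± 0.11 (limma adjusted p = 0.366), which was -0.21 without negative control library 3. Psme1, a subunit of the PA28 proteasome activator, had 17.9, 16.3 and 19.1 FPKM in GCH1-KD libraries, against 19.2, 18.4 and 20.2 FPKM in negative control libraries. Psme2, the other PA28 subunit, had 18.5, 21.6 and 23.1 FPKM in GCH1-KD libraries, against 21.9, 22.8 and 24.6 FPKM in negative control libraries. Both overlapped, with log2 fold changes of -0.11 ± 0.06 and -0.13 ± 0.08 (limma adjusted p = 0.532 and 0.576). Psme1 was at -0.06 without GCH1-KD library 2 and Psme2 at -0.04 without GCH1-KD library 1, and 22.9% of the windows of Psme2 were identical in Psme2b.

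The other inducible proteasome subunits did not follow Psmb9. Psmb8 was at a log2 fold change of 0.04 and Psmb10 at -0.01, and Erap1, which trims peptides in the endoplasmic reticulum, at 0.04, all with overlapping groups. Each inducible subunit was also set against the constitutive subunit it replaces, as a ratio of FPKM within each library and with no test. Psmb9 to Psmb6 was 0.0147, 0.0130 and 0.0129 in GCH1-KD libraries, against 0.0151, 0.0184 and 0.0223 in negative control libraries, and the groups were apart. Psmb8 to Psmb5 was 0.221 ± 0.0039 in GCH1-KD libraries and 0.226 ± 0.021 in negative control libraries. Psmb10 to Psmb7 was 0.174 ± 0.013 in GCH1-KD libraries and 0.183 ± 0.023 in negative control libraries (SD, n = 3 each). Both of these overlapped.

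Among the regulators, Nlrc5, the class I transactivator, had 17.9, 17.6 and 16.9 FPKM in GCH1-KD libraries, against 19.4, 18.5 and 18.6 FPKM in negative control libraries. The groups were apart by a narrow margin, at 92.9% of negative control (log2 fold change -0.10 ± 0.04, limma adjusted p = 0.424). Rfx5, the DNA-binding subunit of the RFX complex, had 3.09, 5.32 and 4.09 FPKM in GCH1-KD libraries, against 5.29, 5.83 and 5.26 FPKM in negative control libraries. GCH1-KD library 2 lay within the control range and library 1 far under it. Its log2 fold change was -0.34 ± 0.15 (limma adjusted p = 0.445), and it was -0.19 without GCH1-KD library 1 and -0.50 without GCH1-KD library 2. Rfxap, another RFX subunit, had 9.42, 11.5 and 10.7 FPKM in GCH1-KD libraries, against 10.5, 10.7 and 11.5 FPKM in negative control libraries, which overlapped (-0.06 ± 0.07, limma adjusted p = 0.798), and Rfxank, the last of the RFX subunits, was at 0.03.

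In the class II route, H2-Oa, a chain of the H2-O protein that restrains H2-DM, had 7.171, 6.954 and 7.002 FPKM in GCH1-KD libraries, against 6.58, 6.09 and 6.44 FPKM in negative control libraries. All knockdown libraries lay above all controls, at 110.5% of negative control (log2 fold change 0.13 ± 0.05, limma adjusted p = 0.397). H2-DMb1, a chain of the peptide exchanger H2-DM, had 10.06, 9.97 and 10.68 FPKM in GCH1-KD libraries, against 10.48, 10.57 and 10.99 FPKM in negative control libraries, which overlapped (log2 fold change -0.06 ± 0.05, limma adjusted p = 0.664). Its partner chain H2-DMa had 1.58, 1.91 and 1.62 FPKM in GCH1-KD libraries, against 1.37, 1.34 and 1.81 FPKM in negative control libraries, which also overlapped (0.11 ± 0.09, limma adjusted p = 0.670).

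Cd74, the invariant chain, was chosen for description after its values were seen, because it took 2 levels in both groups. It had 119.9, 71.0 and 119.1 FPKM in GCH1-KD libraries, against 76.2, 79.1 and 117.0 FPKM in negative control libraries. GCH1-KD libraries 1 and 3 and negative control library 3 were high, and the other libraries were low, so the groups overlapped fully. Its log2 fold change was 0.17 ± 0.24, with a 95% interval of -0.39 to 0.73, and it ran between 0.05 and 0.42 with a library left out (without GCH1-KD libraries 1 and 2). The cause of this spread was not tested.

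Of the costimulatory molecules, Cd40, the receptor for the T cell ligand CD154, had 4.04, 3.83 and 4.19 FPKM in GCH1-KD libraries, against 4.81, 4.72 and 4.28 FPKM in negative control libraries. The groups were just apart, at 87.3% of negative control (log2 fold change -0.16 ± 0.06, limma adjusted p = 0.399). Cd80, a ligand of CD28, had 4.38, 4.25 and 4.65 FPKM in GCH1-KD libraries, against 5.04, 4.32 and 3.38 FPKM in negative control libraries, whose spread covered all knockdown values (0.06 ± 0.11, limma adjusted p = 0.858). Cd86, the other CD28 ligand, had 21.5, 21.3 and 20.9 FPKM in GCH1-KD libraries, against 21.4, 22.1 and 19.9 FPKM in negative control libraries, with full overlap (0.01 ± 0.05, limma adjusted p = 0.966). H2-Ke6 carries the H2- prefix for its place in the MHC and encodes a hydroxysteroid dehydrogenase. It had 9.72, 10.1 and 10.7 FPKM in GCH1-KD libraries, against 10.6, 10.5 and 10.8 FPKM in negative control libraries, which overlapped (-0.06 ± 0.05, limma adjusted p = 0.643), and 65.5% of its windows are identical in the annotated gene Gm20427.

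Base composition moved with the differences. Member transcripts had a median GC content of 53.3%, against 49.9% for all genes tested. Across 10684 protein-coding genes, which are not independent replicates, GC content and log2 fold change had a Spearman correlation of -0.286. In log2 fold change, the median was 0.05 in the quintile of genes lowest in GC and -0.03 in the quintile highest in GC. With a loess trend on GC and length removed from each library, H2-Q4 was at -0.22, H2-K1 at -0.13, H2-D1 at -0.10, Psmb9 at -0.32 and Nlrc5 at -0.09, and no member passed an adjusted p of 0.05. Other members shifted. Erap1 went from 0.04 to 0.0015, and Cd86 (-0.03), Tapbp (0.02) and Psmb10 (0.0017) changed sign, as did B2m. The groups of H2-DMb1, H2-Ke6 and B2m, which had overlapped, were then apart on the lower side. Those of Psmb8 were apart on the higher side, and those of H2-Q6 overlapped. The transcript of B2m, whose direction turned under this correction, had a GC content of 41.2%.

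The rest of the pathway was counted from lists of other proteasome subunits, endoplasmic reticulum folding factors and peptidases, class II route proteases and tetraspanins, regulators, costimulatory ligands and MHC-like genes. Of 83 tested, none passed an adjusted p of 0.05 in limma, and the median log2 fold change was 0.01, as over all genes. At an unadjusted p of 0.05, 3 (3.61%) lay lower and 4 (4.82%) higher, against 4.82% and 6.47% of all genes. The groups were apart on the lower side in 12 (14.5%) and on the higher side in 10 of the 83, against 8.36% and 9.99% of all genes. Among 18 constitutive and accessory proteasome genes, 15 lay above 0, with a median of 0.06, and 4 (22.2%) were apart on the higher side, against 9.99% of all genes, with none apart on the lower side. The 4 were Psma2, Psmb1, Psmb3 and Psme3. Psma2 and Psme4 had the smallest p there (log2 fold change 0.11 each). The other leading genes were Hsp90b1 (0.08), an endoplasmic reticulum chaperone, and Sec61b (0.14), part of the translocon. In the class II route they were Ctsd (-0.22), a lysosomal protease, and Cd81 (0.13), a tetraspanin. Among costimulatory and MHC-like genes they were Cd83 (0.15), Lgals9 (-0.11), Procr (-0.25), the endothelial protein C receptor, and Mr1 (0.17), which presents vitamin B metabolites.

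The upstream regulators lay on both sides of 0. Of 20 tested, 10 lay above 0 and 10 under it, with a median of 0.001. The groups were apart on the lower side in 5 (25.0%), against 8.36% of all genes, and on the higher side in 4 (20.0%), against 9.99%. Those on the lower side were Ezh2, a histone methyltransferase, the interferon receptor chain Ifnar2 (-0.10) and the signalling genes Jak2 (-0.11), Stat3 (-0.06) and Jak1 (-0.05). Those on the higher side were Atf1, Nfya and the interferon-gamma receptor chains Ifngr1 (0.10) and Ifngr2 (0.05), and none passed an adjusted p of 0.05. Irf1, an interferon-induced factor, was at 0.12, Irf8 at 0.0052 and the NF-kB subunit Rela at 0.015, all with overlapping groups. These and the separated regulators other than Atf1 and Ezh2 were picked out after their values were seen. The leading regulators by p were Atf1 (0.31) and Ezh2 (-0.20). Nfya, a subunit of NF-Y, the factor that binds the Y box marked above, was singled out after its values were seen. The other NF-Y subunits on the list, Nfyc (-0.18) and Nfyb (-0.07), lay under 0, with overlapping groups. Nfya had 14.7, 13.9 and 13.9 FPKM in GCH1-KD libraries, against 13.8, 9.13 and 9.25 FPKM in negative control libraries. Negative control library 1 lay just under the knockdown libraries, and the groups overlapped with median-of-ratios scaling and with the GC and length trend removed. Its log2 fold change was 0.39 ± 0.14 (limma adjusted p = 0.384), and the adjusted p ran between 0.031 and 0.619 over the alternatives. It passed only without negative control library 1, at a log2 fold change of 0.57.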

How the data were processed

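Per the labels' protocols, total RNA was extracted with TRIzol, ribosomal RNA was removed, and a stranded kit was used for the libraries. Each gene has 1 value in each library, and the unit is not named in the deposited table. The values the authors deposited behave as FPKM: they are not whole, and 70.1% to 74.0% of values in the 649 to 728 genes used lay within 0.1 of a whole step after multiplying by transcript length. HISAT2, StringTie and edgeR are named without versions or roles, per the submitters' processing notes, which also name hg38 although the identifiers are mouse. The annotation release is not given in the sources used here. No count was used, so the depth was only estimated from the step.

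Libraries were grouped by the genotype label. Symbols came from GENCODE M21 by identifier without version, which matched 12300 genes. Genes that reached 0.5 FPKM in 3 or more of the 6 libraries were tested on log2(FPKM + 1) with limma 3.58.1 in R 4.3.3, with a mean-variance trend, no covariate and Benjamini-Hochberg adjustment over 12222 genes. Every gene of the table had at least 0.501 FPKM as its higher group mean, so weaker genes were not analysed here. Fold changes are on the log2(FPKM + 1) scale, which understates those of weak genes. Values in every library are given for the 3 members with the smallest p in each role group and for all members of smaller groups, and others were named after their values were seen. Members and lists were chosen with earlier results of these data known. The fit was also run on simulated data with independent genes and standard deviations shuffled over genes. That setting differs from these data, and no result here rests on it. The alternatives were a replicate block, each library left out, pseudocounts of 0.1 and 0.5, a minimum mean of 5 FPKM, no filter, quantile and median-of-ratios scaling, robust moderation, no mean-variance trend, and a loess trend (span 0.3) on GC content and length removed, with and without the block. Leaving out H2-Q1 was added after seeing the data. Other calculations used Python 3.11.15 with pandas 2.3.3, numpy 2.4.6 and scipy 1.17.1.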

Additional observations from a re-analysis of the deposited data

How the results depend on the processing

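No member passed an adjusted p of 0.05 in limma under any of the alternatives run; at an unadjusted p of 0.05, 7 members passed in the fit as reported. Of 617 comparisons of a member with an alternative, 590 kept their direction and side of the threshold. The other 27, in 12 genes, changed sign without ever passing it, and B2m, Cd86 and Psmb10 changed sign most often. A block, another filter, robust moderation or no mean-variance trend leaves the fold change as it was. Comparisons under these settings could not change sign, so the count of 590 overstates how stable the directions were. H2-Q4 stayed between -0.29 and -0.22 with adjusted p between 0.22 and 0.464. H2-K1 was at -0.09 without GCH1-KD library 1, H2-D1 at -0.03 under quantile normalization and Psmb9 at -0.45 with a pseudocount of 0.1; the cause was not tested. The number of genes called was 10, and 6 to 18 with 1 library left out (6 without GCH1-KD library 2 or 3, 18 without negative control library 2). Same-numbered libraries correlated at 0.095, 0.059 and 0.094, all under 0.1, although each correlated best with its own number. The main fit used no block. The replicate block left 0 genes called in limma (1330 at an unadjusted p of 0.05) and, with the GC and length trend removed, 0 (1427). Gch1 then no longer passed, with log2 fold changes of -0.96 and -0.97. With the block, the unadjusted limma p of Psme1, Psme2 and Rfx5 went from 0.119, 0.160 and 0.051 to 0.042, 0.043 and 0.021. That of H2-Oa, Cd40, H2-D1 and Nlrc5 went the other way, from 0.034, 0.035, 0.037 and 0.043 to 0.055, 0.068, 0.057 and 0.054. Members apart on the lower side were 5 at a mean of at least 5 FPKM, where 25 members were left, and 9 to 13 with a library left out. Members apart on the higher side were 2 with median-of-ratios scaling, with the GC and length trend removed and with that and the block, and 1 to 5 with a library left out. The member median ran between -0.0501 and -0.0164 with a library left out, and was -0.05 without negative control library 2. Other pathway genes called were 0 to 1 with a library left out, the 1 being Nfya. Without negative control library 3, the difference in the ratio of Psmb8 to Psmb5 turned to 0.0056 and that of Psmb10 to Psmb7 to 0.0038, against -0.005 and -0.0096 with all libraries; over libraries left out they ran between -0.0157 and 0.0056 and between -0.0173 and 0.0038. Depth was known only by estimate, and its effect on the values was not tested.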
